A study of Mus musculus with 2 samples.

Results

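Two-pore domain potassium channels are encoded in the mouse by the Kcnk genes, and 9 of them were followed here across the cell classes of the ventral parafacial region of the brainstem. The members were taken by symbol from the gene lists of both libraries: Kcnk1, Kcnk2, Kcnk3, Kcnk5, Kcnk6, Kcnk9, Kcnk10, Kcnk12 and Kcnk13. They are 9 of 28692 genes listed, and 14 Kcnk genes are listed in all. Every member had at least 1 unique molecular identifier (UMI, 1 captured transcript) in a gated cell of the untreated library, and 8 of the 9 had one in the other library. The study examined how excitatory and inhibitory parafacial neurons sense CO2 and H+ and shape breathing, and it used single-cell RNA sequencing to describe the cells of the region. Both libraries came from wild-type C57BL6/J mice aged 10 days, each from 8 pooled animals (4 of each sex), so the spread between animals cannot be seen. The first library (batch 1) was untreated and the second (batch 2) came from mice given 4OH-tamoxifen at 0.2 mg a day for 3 days. Treatment and batch cannot be told apart, and since each condition has a single library, conditions were not tested against each other.

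Each subunit of these channels carries a pair of pore-forming domains, and paired subunits make a channel that passes K+ at rest, sets the resting potential and holds the cell near the K+ equilibrium. The family is divided by what opens or closes the pore: TASK channels respond to extracellular acid or alkali, TREK channels to membrane stretch, lipids and temperature, TWIK channels carry small currents, and THIK channels are blocked by the anaesthetic halothane. In the retrotrapezoid nucleus, the group of CO2-sensing neurons in this region, Kcnk5 (TASK-2) and the proton receptor Gpr4 are known as proton sensors.

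The libraries held 3767 and 10241 barcodes, untreated first here and throughout, with 18496942 and 34704167 UMIs and a median of 3455 and 2316 UMIs a barcode. After filters 3339 and 8558 cells were kept, and 65.0% and 53.5% of them fell in 1 of 10 classes gated by markers, none of which is a member. Neurons were gated by Nmb, Slc17a6 without Nmb, Slc32a1 or Chat, and non-neuronal cells by Aqp4 (astrocytes), Pdgfra (oligodendrocyte precursors), Mog (oligodendrocytes), C1qa (microglia), Cldn5 (endothelial cells) and Kcnj8 (pericytes). The classes are unequal: 22 and 52 Nmb neurons, 18 and 68 Slc17a6 neurons, 80 and 294 Slc32a1 neurons, 18 and 83 Chat neurons, 745 and 1484 astrocytes, and 33 and 19 pericytes. Of 42 markers outside the gates, 37 were found in a larger share of their own class than of any other, for example Gal in 52.7% of Nmb neurons, Gad2 in 90.6% of Slc32a1 neurons, Slc5a7 in 84.2% of Chat neurons and Gja1 in 93.6% of astrocytes. Markers were not exclusive: 9 had a UMI in at least 50% of the cells of another class, Mbp was found in every cell of all classes, Slc5a7 in 38.4% of Slc17a6 neurons and Gja1 in 40.1% of endothelial cells, while Aldh1l1 was found in 26.6% of astrocytes. The fibroblast gene Dcn was found in 10.9% of Chat neurons and in at most 1.08% of any other class. The libraries shared 40 barcode sequences, of which 32 were kept in both.

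Levels are UMIs of a gene per 1000000 UMIs of the class (CPM) with exact Poisson 95% intervals, which cover counting error only. Reads were captured at the 3' end of transcripts, so levels are compared between classes and not between genes. The members differed widely in how much data they gave. Over the gated cells of both libraries Kcnk1 had 1614 UMIs, Kcnk13 742, Kcnk2 681, Kcnk3 457, Kcnk6 161, Kcnk12 138, Kcnk5 66, Kcnk10 36 and Kcnk9 4. Kcnk1 led in astrocytes, Kcnk2 and Kcnk10 in oligodendrocyte precursors, Kcnk3 in Chat neurons, Kcnk5 in Nmb neurons, and Kcnk6, Kcnk12 and Kcnk13 in microglia.

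**Figure D1:**
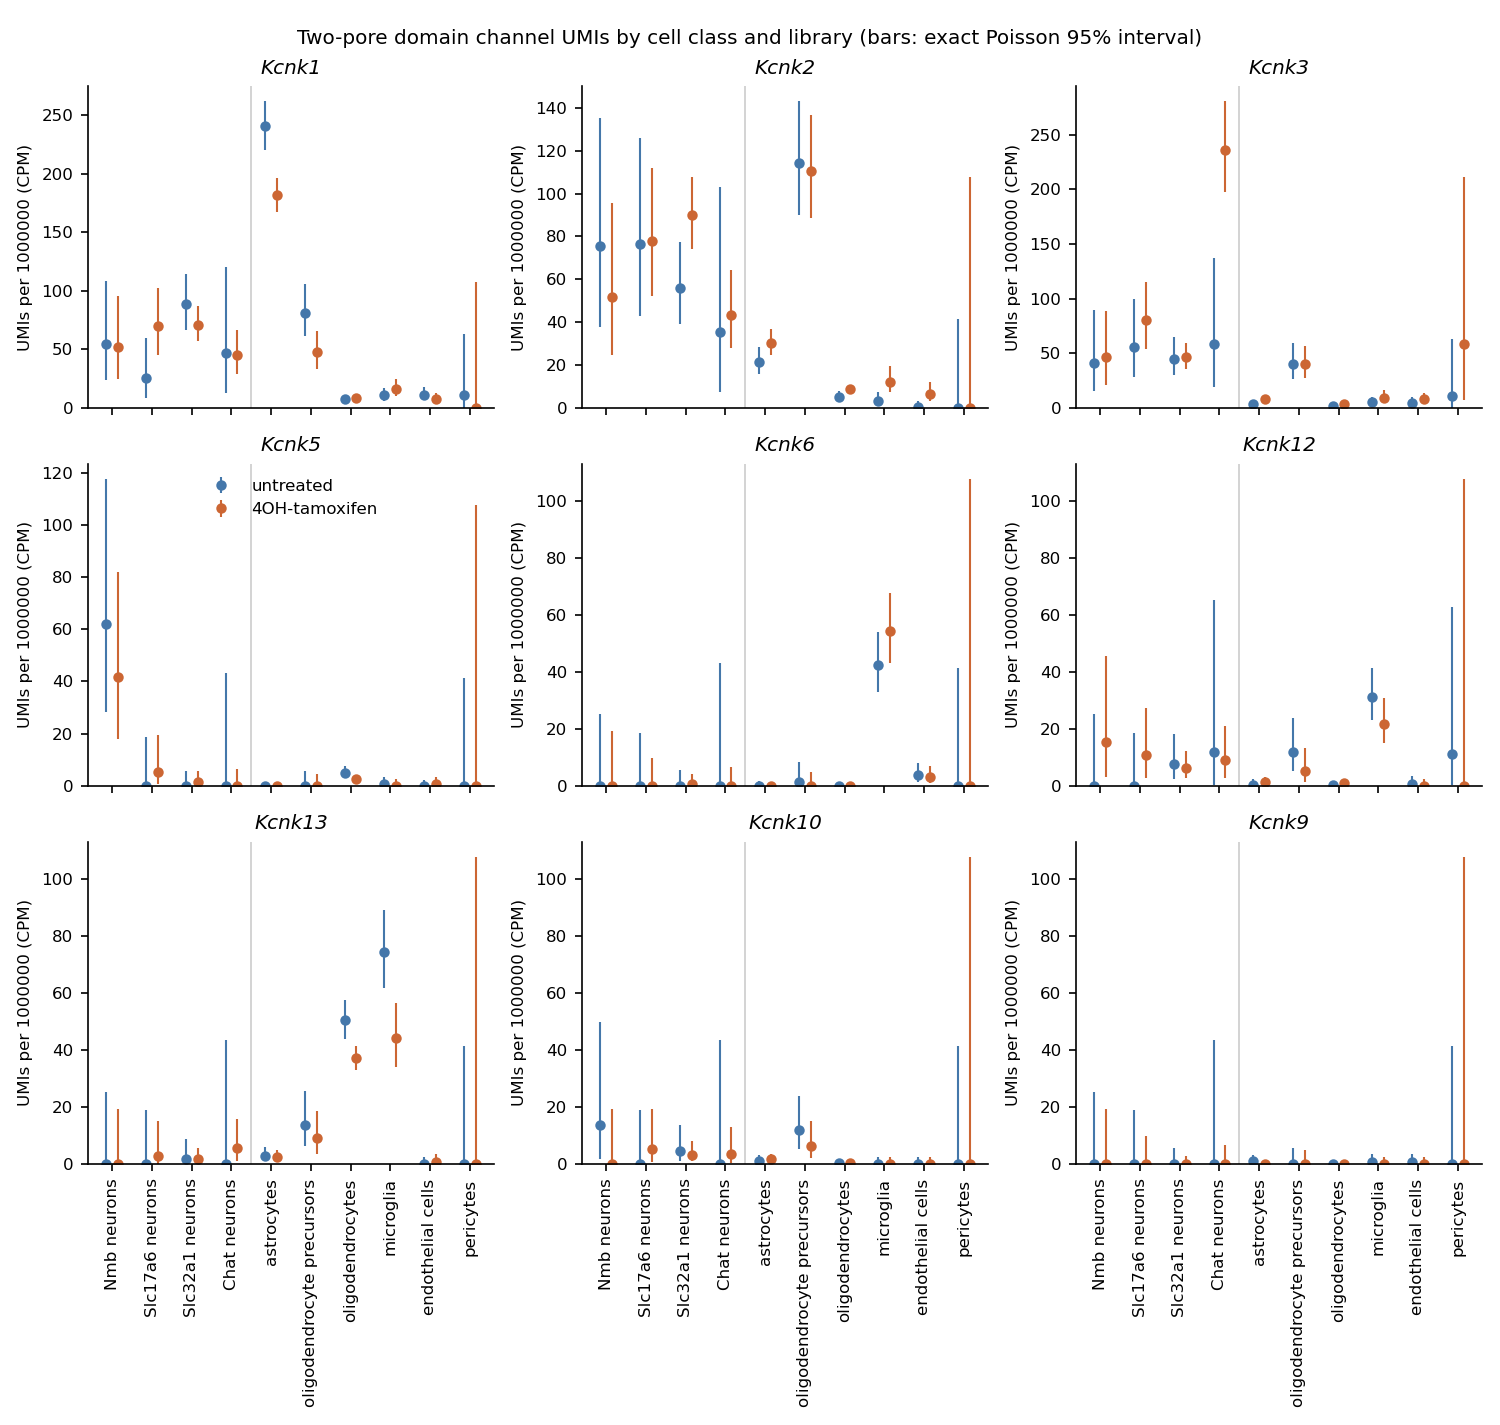
Level of each of the 9 genes in the 10 cell classes. Each panel gives CPM on its own linear axis, points are the untreated and the 4OH-tamoxifen library, and bars are exact Poisson 95% intervals of counting error. Kcnk1 stands highest in astrocytes (240.4 and 181 CPM), Kcnk5 in Nmb neurons (61.9 and 41.5 CPM), Kcnk6 in microglia (42.5 and 54.4 CPM), and the wide bars of pericytes reflect 33 and 19 cells.

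Classes were compared by edgeR's quasi-likelihood test on the UMIs summed by class and library, 20 sums in all, with the library as a block and Benjamini-Hochberg adjustment over the 12019 genes that passed the filter on low counts. Of the members 7 passed, and Kcnk9 and Kcnk10 did not. A p-value here measures the spread between a pair of libraries that also differ in treatment. Contrasts are between means of log class levels, so a small class weighs as much as a large one. Where classes on both sides had 0 UMIs in both libraries the contrast has no value, and where 1 side had such a class the fitted fold depends on the small count that edgeR adds, so levels are given in place of a fold. As an alternative chosen after seeing the data, the UMIs of all classes on a side were summed before the test.

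**Figure D2:**
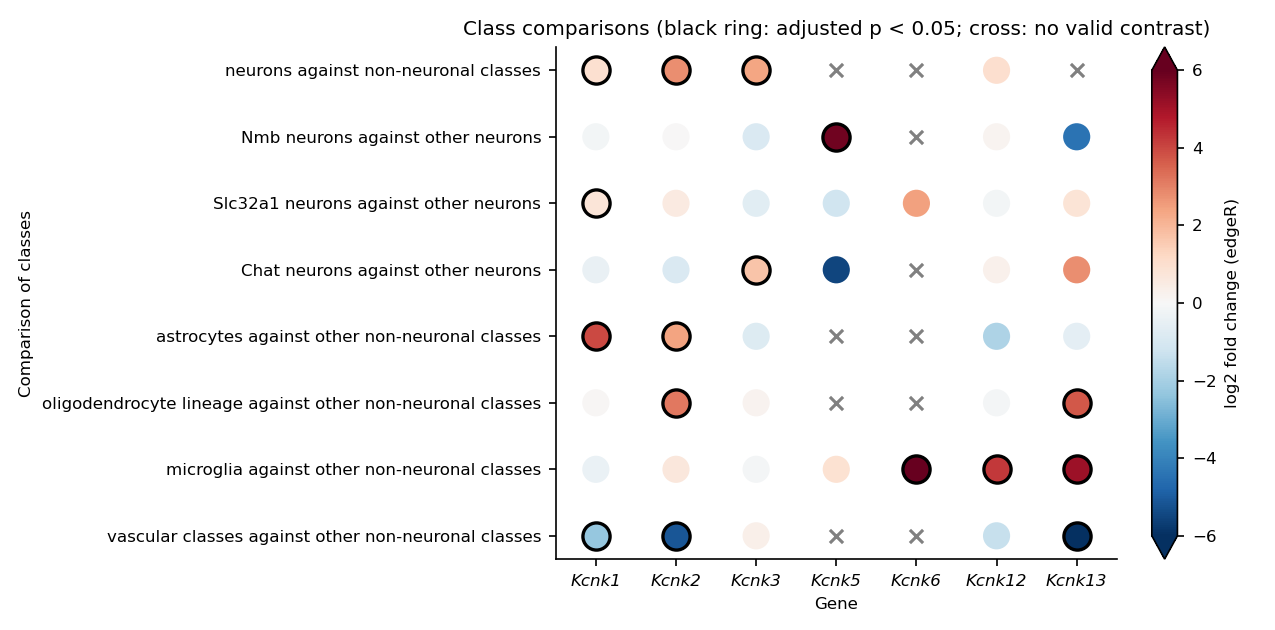
Results of the edgeR quasi-likelihood test for the 7 tested genes (columns) in 8 comparisons of classes (rows). Colour is the fitted log2 difference, which for genes with a class at 0 UMIs depends on the small count that edgeR adds. A ring marks an adjusted p under 0.05 and a cross a contrast with no value. Kcnk3 is ringed for neurons and for Chat neurons, Kcnk5 for Nmb neurons, and Kcnk6, Kcnk12 and Kcnk13 for microglia.

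Kcnk5 encodes TASK-2, a channel that alkali opens and acid closes. The gene lies on the minus strand at chr14:20140057-20181809 (GRCm38), and 79566 bases separate it from Kcnk16, another gene of the family, for which no UMI was counted. In Nmb neurons Kcnk5 had 61.9 CPM in the untreated library (interval 28.3 to 117, 9 UMIs) and 41.5 CPM in the 4OH-tamoxifen library (17.9 to 81.8, 8 UMIs). The latter was 76.1 CPM with cells thinned to 2000 UMIs and 26.8 CPM with classes taken from clusters. Thinning left out cells of fewer than 2000 UMIs, here and below. No other neuronal class came near: Slc17a6 neurons had 0 and 2 UMIs, Slc32a1 neurons 0 and 2, and Chat neurons 0 and 0. Of the 7 tested members 1, Kcnk5, was called between Nmb neurons and other neurons (adjusted p = 8.64e-06, edgeR quasi-likelihood test with Benjamini-Hochberg adjustment) and 1 had no value, where 4.68% of all genes tested were called. Kcnk5 passed the filter on low counts only through Nmb neurons, since every other class had at most 5.37 CPM. Its place among the tested members thus depends on the level compared. Without the filter it was also called, where 2.93% of all genes were. With the other neurons summed, the log2 difference was 5.21 with an SE of 0.72. The test rests on 17 UMIs in 74 cells. It could not be run with at most 10% mitochondrial UMIs, where 3 and 12 Nmb neurons were left and Kcnk5 had 0 UMIs in the untreated library.

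The share of Nmb neurons with a Kcnk5 UMI was 17.6% (13 of 74 cells, exact interval 9.70 to 28.2) at a median depth of 4203.5 UMIs. It was 0.107% in microglia, which served as background, at a median of 2922. With cells thinned to 2000 UMIs the share was 14.7% of 68 Nmb neurons and 0% of 760 microglia. Thinned shares are thus of the deeper cells of a class, such as 1452 of 2229 astrocytes and 329 of 584 precursors.

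Outside neurons, Kcnk5 was counted in oligodendrocytes, with 5.08 CPM (3.15 to 7.77, 21 UMIs) and 2.61 CPM (1.64 to 3.96, 22 UMIs). Nmb neurons stood above oligodendrocytes by 12.2-fold (4.91 to 27.7) and 15.9-fold (6.12 to 37.1). A Kcnk5 UMI was present in 2.53% of oligodendrocytes, at a median depth of 7175 UMIs, and in 0.672% after thinning. There was no Kcnk5 UMI in 2229 astrocytes, which allows a share of cells with a UMI of up to 0.135%, and none in 584 precursors, which allows up to 0.514%. Summed over the oligodendrocyte lineage, Kcnk5 was higher than in other non-neuronal classes (log2 4.29, SE 0.71, adjusted p = 1.24e-05). The main contrast had no value, since precursors, astrocytes and pericytes had 0 UMIs.

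Oligodendrocytes were also divided by genes that change as they mature, a division chosen after seeing the data: Enpp6 marks newly formed cells, Opalin myelinating cells and Klk6 a mature kind found in hindbrain and spinal cord. Kcnk5 had 0 UMIs in 83 and 269 cells with Enpp6 alone, 7 and 7 UMIs in 100 and 364 cells with Opalin alone, and 2 and 2 UMIs in 18 and 104 cells with Klk6. All of the Kcnk5 UMIs in these 3 groups thus came from cells with Opalin or Klk6, but the lower bounds of the Opalin to Enpp6 ratio, 0.917 and 0.997, did not pass 1.

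Kcnk3 encodes TASK-1, a channel closed by extracellular acid, and lies on the plus strand at chr5:30588170-30625271. In Chat neurons, the cholinergic class, Kcnk3 had 58.7 CPM in the untreated library (19.1 to 137, 5 UMIs in 18 cells) and 236 CPM in the 4OH-tamoxifen library (198 to 280.4, 131 UMIs in 83 cells). It was present in every other neuronal class, with 55.9 and 80.5 CPM in Slc17a6 neurons, 44.9 and 46.4 CPM in Slc32a1 neurons and 41.2 and 46.7 CPM in Nmb neurons. Precursors had 40.6 and 39.8 CPM, and astrocytes, oligodendrocytes, microglia and endothelial cells between 1.45 and 9.53 CPM. Pericytes had 11.3 and 58.4 CPM, on 1 and 2 UMIs. The untreated intervals of the neuronal classes and precursors overlapped throughout, and Chat neurons stood above Slc17a6 neurons by 1.05-fold (0.286 to 3.28) in the untreated library and 2.93-fold (1.96 to 4.52) in the other.

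Kcnk3 was higher in neurons than in non-neuronal classes by 2.38 on the log2 scale (SE 0.24, adjusted p = 1.90e-14, edgeR quasi-likelihood test), with 2.70 and 2.48 in the libraries taken alone. In that comparison 3 of the 7 tested members were called, all of them higher, 3 had no value and 1 was not called, where 59.5% of all genes were called in either direction. Between Chat and other neurons 1 of 7, Kcnk3, was called and 1 had no value, with 15.8% of all genes called. The Chat difference was 1.70 (SE 0.27, adjusted p = 6.80e-07), but in the libraries taken alone it was 0.32 (untreated) and 2.06 (4OH-tamoxifen). A Kcnk3 UMI was present in 46.5% of Chat neurons (36.5 to 56.7) at a median of 4561 UMIs and in 2.36% of microglia at 2922. The thinned shares were 22.7% and 0.658%.

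The Chat neurons fell mostly in a pair of clusters when neurons were grouped without the Kcnk genes, a division also made after seeing the data. The first held 17 and 40 cells with high Malat1, a nuclear RNA, at 71592 and 96493 CPM. In it Kcnk3 had 65.0 CPM (5 UMIs) and 79.2 CPM (10 UMIs), close to the level of other neurons. The second held 1 untreated and 41 4OH-tamoxifen cells, with Malat1 at 10953 CPM in the latter and a median of 10014 UMIs a cell. There Kcnk3 had 288 CPM (121 UMIs), so 121 of the 131 Kcnk3 UMIs of Chat neurons in the 4OH-tamoxifen library came from 41 cells. The part of depth and of Malat1 in this difference was not tested, nor was that of the Dcn UMIs of the Chat class.

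Kcnk9 encodes TASK-3, the closest relative of TASK-1 (chr15:72501089-72546340, minus strand). It had 4 UMIs in the gated cells of the untreated library, 2 in astrocytes and 1 each in microglia and endothelial cells, and 0 in the 4OH-tamoxifen library. With 0 of 374 Slc32a1 neurons and 0 of 74 Nmb neurons, shares of cells with a UMI of up to 0.802% and 4.05% are allowed at this depth.

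Kcnk2 encodes TREK-1, opened by stretch, arachidonic acid and warmth, and spans 194344 bases on the minus strand at chr1:189207930-189402273. Among the gated classes it was highest in oligodendrocyte precursors, the dividing cells of the myelin lineage. Precursors had 114 CPM (90 to 143, 76 UMIs) and 111 CPM (88.4 to 136, 86 UMIs). Neurons followed, with 76.2 and 77.8 CPM in Slc17a6 neurons, 55.8 and 89.7 CPM in Slc32a1 neurons, 75.6 and 51.9 CPM in Nmb neurons and 35.2 and 43.3 CPM in Chat neurons. Neighbours in this order did not differ beyond counting error in either library. Astrocytes had 21.5 and 30.3 CPM, above microglia (3.13 and 12.3 CPM) in both libraries, and oligodendrocytes had 5.08 and 8.67 CPM. Endothelial cells had 1 and 11 UMIs and pericytes none.

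Kcnk2 was called higher in neurons (adjusted p = 8.34e-10), in astrocytes (adjusted p = 0.000145) and in the oligodendrocyte lineage (adjusted p = 1.28e-06) than in the classes each was compared with by edgeR's quasi-likelihood test, and lower in vascular classes (adjusted p = 0.000387). The pericyte class without a UMI enters each of these contrasts. With the classes of a side summed, the log2 difference was 1.76 (SE 0.21) for neurons, 0.92 (SE 0.20) for astrocytes and -2.40 (SE 0.41) for vascular classes. The same alternative gave 0.47 (SE 0.21, adjusted p = 0.0584) for the oligodendrocyte lineage, so that call was lost. The astrocyte call was lost with classes taken from clusters (log2 0.32, adjusted p = 0.327), and the neuron call with at most 10% mitochondrial UMIs (adjusted p = 0.0537). A Kcnk2 UMI was present in 23.97% of precursors at a median of 2099 UMIs and 27.3% of Slc32a1 neurons at 4341, against 2.25% of microglia. The thinned shares were 21.6%, 14.8% and 1.32%.

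Within the oligodendrocyte lineage Kcnk2 was lower in more mature cells. It had 18.6 CPM (12 UMIs) and 23.7 CPM (41 UMIs) in cells with Enpp6 alone and 2.96 CPM (3 UMIs) and 4.00 CPM (10 UMIs) in cells with Opalin alone. The Opalin to Enpp6 ratio was 0.159 (0.0288 to 0.589) and 0.169 (0.0753 to 0.342). Among Slc32a1 neurons, those with a UMI of Slc6a5, the glycine transporter of glycinergic neurons, had more Kcnk2 than those without by 4.95-fold (1.55 to 25.2) in the untreated library. In the 4OH-tamoxifen library the ratio was 1.48 (0.962 to 2.34), within counting error. Cells kept out of every class for their Dcn and Col1a1 UMIs, the pattern of fibroblasts, had 126 and 86.1 CPM of Kcnk2 (30 and 15 UMIs).

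Kcnk10 encodes TREK-2, the relative of TREK-1 (chr12:98429437-98578310, minus strand), and had 36 UMIs. Its highest level was likewise in precursors, with 12.02 CPM (5.19 to 23.7, 8 UMIs) and 6.43 CPM (2.09 to 15.0, 5 UMIs), and no pair of neighbours in its order differed in both libraries. With at most 10% mitochondrial UMIs, and with a gate of 1 UMI, Nmb neurons led in place of precursors. With neurons and non-neuronal classes summed it was higher in neurons (log2 1.83, SE 0.67, adjusted p = 0.0123) on 7 UMIs in Slc32a1 neurons and 2 in each of the other neuronal classes.

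Kcnk1 encodes TWIK-1, a channel of small currents that is found largely inside cells (chr8:125995170-126030685, plus strand). It had 240.4 CPM (220.5 to 262, 536 UMIs) and 181 CPM (167 to 197, 586 UMIs) in astrocytes. Slc32a1 neurons came next with 88.3 and 71.2 CPM, below astrocytes by 2.72-fold (2.07 to 3.64) and 2.55-fold (2.04 to 3.21). Precursors, Nmb, Slc17a6 and Chat neurons lay between 25.4 and 81.2 CPM, and their order did not hold beyond counting error. Microglia, endothelial cells and oligodendrocytes had 7.33 to 16.3 CPM.

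Astrocytes exceeded other non-neuronal classes by 3.95 on the log2 scale for Kcnk1 (SE 0.19, adjusted p = 6.23e-31, edgeR quasi-likelihood test), with 3.87 and 4.31 in each library. In this comparison 2 of 7 members, Kcnk1 and Kcnk2, were called higher and 2 had no value, with 36.5% of all genes called and a median of 0.15 over all genes. Vascular classes had less Kcnk1 than other non-neuronal classes by -2.30 (SE 0.48, adjusted p = 9.70e-05). There 3 of 7 members, Kcnk1, Kcnk2 and Kcnk13, were called, all of them lower, and 2 had no value, with 24.2% of all genes called and a median of -0.35.

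Neurons had more Kcnk1 than the mean of the non-neuronal classes (0.96, SE 0.25, adjusted p = 0.000699). That contrast gives astrocytes the weight of 1 class in 6, and with the classes summed the difference was 0.03 (SE 0.19, adjusted p = 0.916). Slc32a1 neurons exceeded other neurons by 0.76 (SE 0.26, adjusted p = 0.0425), the 1 member of 7 called where 10.1% of all genes were. It did not pass in 12 of 14 alternatives, and over the 14 the adjusted p ran from 0.00307 to 0.323. Other members were called in Slc32a1 neurons under some alternatives, Kcnk2 as higher with at most 10% mitochondrial UMIs (adjusted p = 0.0329) and with classes from clusters (0.0499), and Kcnk3 as lower with RLE scaling (0.0392), a gate of 1 UMI (0.0206) and summed sides (0.00365). Under edgeR's RLE scaling the Slc32a1 difference was 0.57 and the median of all genes was 0.02 in place of 0.20.

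A Kcnk1 UMI was present in 36.8% of astrocytes (34.8 to 38.8) at a median depth of 2196 UMIs and in 4.07% of microglia at 2922. The thinned shares were 32.9% and 3.03%. Oligodendrocytes and endothelial cells had thinned shares of 2.14% and 2.56%, at or below the microglial background. Astrocytes were divided by a UMI of Gfap, the intermediate filament of fibrous and reactive astrocytes, after seeing the data. Cells with Gfap had less Kcnk1, 178 against 322 CPM in the untreated and 158 against 222 CPM in the 4OH-tamoxifen library, ratios of 0.552 (0.463 to 0.658) and 0.711 (0.602 to 0.840). Kcnk2 went the other way, with 29.4 against 11.3 CPM and 36.1 against 20.3 CPM, ratios of 2.59 (1.29 to 5.62) and 1.78 (1.11 to 2.96). In astrocytes, then, the channel of small currents and the stretch-opened channel were divided by Gfap in opposite directions, in both libraries.

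**Figure D3:**
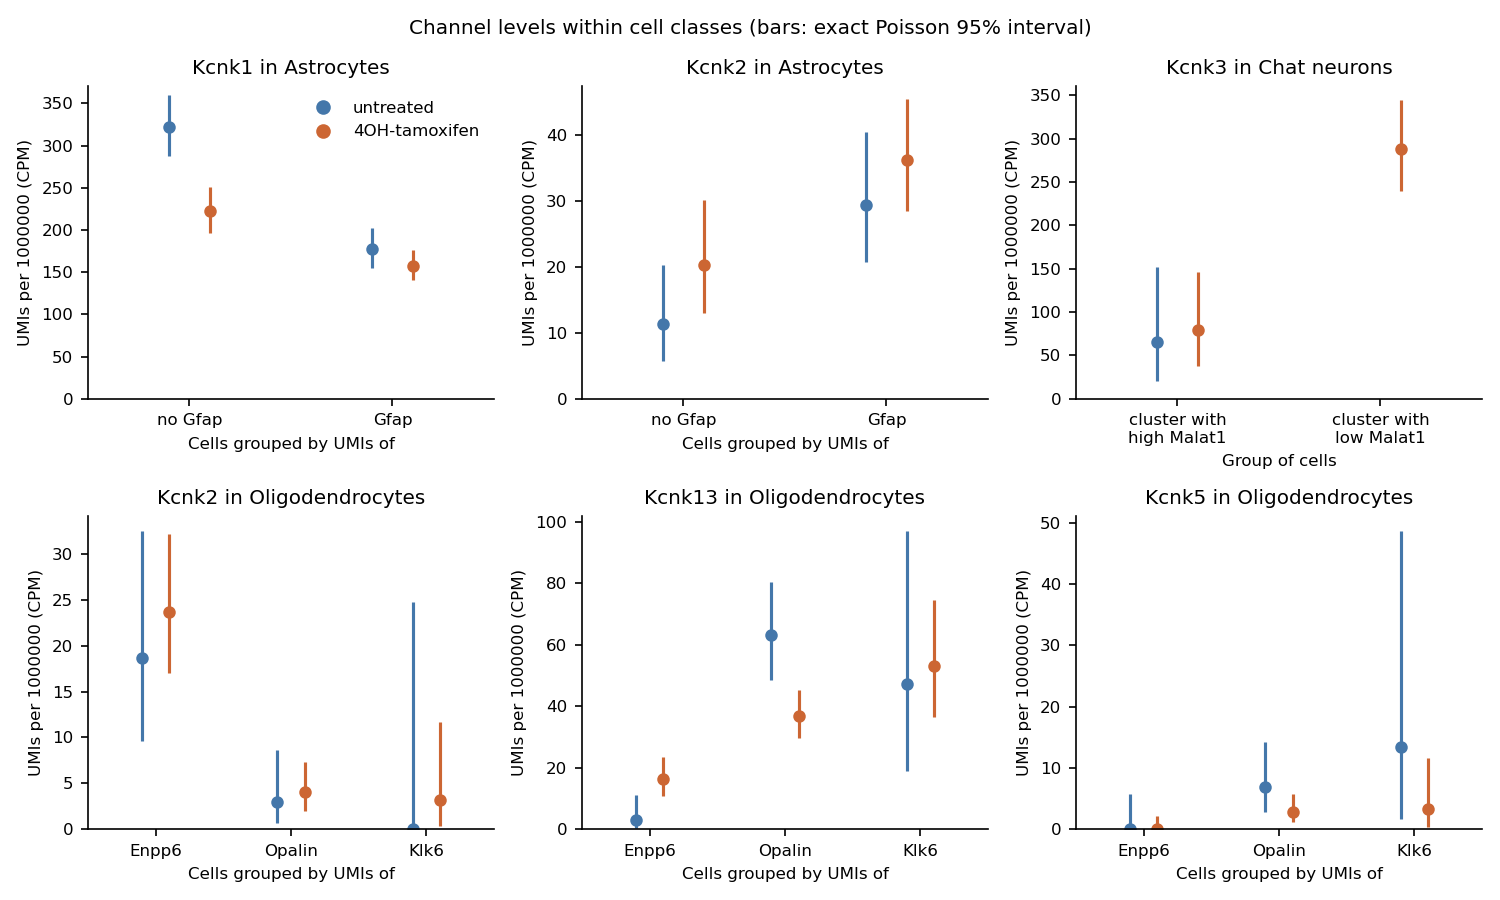
Levels of members within classes divided by a marker that is no member or, for Chat neurons, by cluster, divisions chosen after seeing the data. Axes give CPM on a linear scale, points are the 2 libraries and bars exact Poisson 95% intervals. Astrocytes with a Gfap UMI had less Kcnk1 (178 against 322 CPM untreated) and more Kcnk2 (29.4 against 11.3 CPM). Kcnk3 was at 288 CPM in the Chat cluster with low Malat1, whose 1 untreated cell is not drawn, and Opalin oligodendrocytes had more Kcnk13 and less Kcnk2 than Enpp6 oligodendrocytes.

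Kcnk6 encodes TWIK-2, a channel of endosomes and the plasma membrane that is known in macrophages for the K+ efflux ahead of inflammasome assembly (chr7:29221926-29232515, minus strand). It had 42.5 CPM (33.0 to 53.9, 68 UMIs) and 54.4 CPM (43.2 to 67.8, 80 UMIs) in microglia. The next class, endothelial cells, had 3.71 CPM (6 UMIs) and 3.05 CPM (5 UMIs), lower by 11.4-fold (5.00 to 32.3) and 17.8-fold (7.33 to 56.4). The remaining 8 classes had 2 UMIs together over both libraries. A UMI was present in 14.5% of microglia at a median of 2922 UMIs and in 0 of 1663 oligodendrocytes at 7175, which allows a share of cells with a UMI of up to 0.180%. After thinning the microglial share was 8.16%.

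Kcnk13 encodes THIK-1, the tonically active K+ channel of microglia that sets their resting potential and surveillance (chr12:99964499-100062682, plus strand). Microglia had 74.4 CPM (61.7 to 89.1, 119 UMIs) and 44.2 CPM (34.1 to 56.4, 65 UMIs). Oligodendrocytes were near them, with 50.4 CPM (43.7 to 57.7, 208 UMIs) and 37.1 CPM (33.1 to 41.4, 312 UMIs). The microglial level was above that of oligodendrocytes by 1.48-fold (1.17 to 1.86) in the untreated library and 1.19-fold (0.899 to 1.56), within counting error, in the other. Precursors had 13.5 and 8.995 CPM, below oligodendrocytes by 3.72-fold (1.92 to 8.25) and 4.12-fold (1.98 to 10.3). No neuronal class had more than 3 UMIs of Kcnk13 in a library.

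Kcnk13 UMIs were present in 23.0% of oligodendrocytes at a median of 7175 UMIs and 17.6% of microglia at 2922, and in 0.628% of astrocytes at 2196. Among the cells thinned to equal depth the order of the first 2 turned, with shares of 7.70% and 11.3%. The oligodendrocyte signal was uneven. Cells with Enpp6 alone had 3.10 CPM (2 UMIs) and 16.2 CPM (28 UMIs), cells with Opalin alone 63.1 CPM (64 UMIs) and 36.8 CPM (92 UMIs), and cells with Klk6 47.1 and 53.1 CPM (7 and 33 UMIs). The Opalin to Enpp6 ratio was 20.4 (5.41 to 172) and 2.27 (1.47 to 3.60), opposite in direction to that of Kcnk2 in the same cells. From Enpp6 to Opalin cells Kcnk2 was thus lower and Kcnk13 higher, in both libraries.

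Kcnk12 encodes THIK-2, a relative of THIK-1 that is held largely inside cells (chr17:87745801-87797994, minus strand). Its highest level was in microglia, with 31.3 CPM (23.2 to 41.2, 50 UMIs) and 21.8 CPM (14.9 to 30.7, 32 UMIs). Precursors had 12.02 CPM (8 UMIs) and 5.14 CPM (4 UMIs), and the 4 neuronal classes had 0 to 8 UMIs each in a library. A UMI was present in 8.24% of microglia at a median of 2922 UMIs and in 0.661% of oligodendrocytes at 7175, with thinned shares of 4.87% and 0.122%. Microglia did not stand above Chat neurons beyond counting error in either library, since 1 and 5 UMIs in Chat neurons left wide intervals. Neurons and non-neuronal classes differed by 1.02 (SE 0.53, adjusted p = 0.0919), which did not pass.

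Between microglia and other non-neuronal classes 3 of 7 members were called, all of them higher, with 33.0% of all genes called. They were Kcnk6 (adjusted p = 2.09e-24), Kcnk12 (log2 4.22, SE 0.42, adjusted p = 1.59e-14) and Kcnk13 (adjusted p = 5.47e-21), all by edgeR's quasi-likelihood test. Kcnk6 and Kcnk12 passed the filter on low counts only through microglia, so their place among the 7 depends on the level compared. Without the filter the same 3 were called, of 9 members tested, with 21.5% of all genes called. With the other classes summed the log2 differences were 6.82 (SE 0.35) for Kcnk6, 4.63 (SE 0.36) for Kcnk12 and 1.62 (SE 0.20) for Kcnk13. The oligodendrocyte lineage exceeded other non-neuronal classes for 2 of 7 members, Kcnk2 and Kcnk13 (adjusted p = 2.10e-06), where 2 had no value, with 34.8% of all genes called. Summed, neurons had less Kcnk13 (log2 -4.05, SE 0.40) and less Kcnk6 (log2 -4.57, SE 0.83). Mrc1 and Pf4, genes of macrophages at the brain's borders, had a UMI in 5.57% and 5.46% of microglia. For the 3 channels the ratios of cells with either gene to cells without had intervals that held 1. They were 0.703 and 1.82 for Kcnk6, 0.717 and 0 for Kcnk12, and 0.493 (0.157 to 1.18) and 0 (0 to 1.11) for Kcnk13. Cells with either gene had 4 and 7 UMIs of Kcnk6, 3 and 0 of Kcnk12, and 5 and 0 of Kcnk13. Counts so low cannot decide whether the levels differ.

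Promoters are shown for the pair of THIK genes, which were highest in microglia, and for Kcnk5, which was 0 or 1 UMI there. Each runs from 250 bases before to 50 bases after the annotated start, in RefSeq's annotation of GRCm38.p6, 5' to 3' on the strand of the gene. Capitals mark GAGGAA on either strand, the core of the sites bound by PU.1, a transcription factor of myeloid cells. The 3 windows lie at chr17:87797945-87798244, chr12:99964249-99964548 and chr14:20181733-20182032.
Kcnk12: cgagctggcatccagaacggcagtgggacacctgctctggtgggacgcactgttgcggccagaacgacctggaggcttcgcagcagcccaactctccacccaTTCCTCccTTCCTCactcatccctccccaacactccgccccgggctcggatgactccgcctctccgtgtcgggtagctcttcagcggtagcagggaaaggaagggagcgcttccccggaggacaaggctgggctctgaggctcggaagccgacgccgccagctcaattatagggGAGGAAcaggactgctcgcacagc
Kcnk13: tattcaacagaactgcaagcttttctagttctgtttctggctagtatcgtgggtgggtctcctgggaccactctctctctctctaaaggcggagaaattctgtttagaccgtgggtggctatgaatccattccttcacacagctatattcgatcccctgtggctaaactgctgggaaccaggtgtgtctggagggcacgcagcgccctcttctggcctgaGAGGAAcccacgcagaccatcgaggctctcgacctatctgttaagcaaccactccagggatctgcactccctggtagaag
Kcnk5: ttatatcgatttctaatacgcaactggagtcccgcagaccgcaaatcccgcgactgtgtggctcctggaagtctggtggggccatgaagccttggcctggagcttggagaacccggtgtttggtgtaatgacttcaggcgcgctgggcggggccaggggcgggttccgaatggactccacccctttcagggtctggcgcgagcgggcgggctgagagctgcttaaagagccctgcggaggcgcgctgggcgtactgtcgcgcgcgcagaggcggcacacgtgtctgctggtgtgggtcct

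The Kcnk12 window held 3 matches, the Kcnk13 window 1 and the Kcnk5 window 0. The table held 10 windows for 6 members, and 6 of these 10 windows had a match, where 28.3% of all 32851 promoter windows did. Among the members with a match were Kcnk1, Kcnk2 and Kcnk10, which were not highest in microglia. These letters are a description of the windows and say nothing of binding.

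Levels of the members differed between the libraries in several classes. Of 29 pairs of member and class with at least 20 UMIs over both libraries, 11 had a ratio whose 95% interval did not hold 1, where 18.5% of all such pairs of gene and class did. The ratios are 4OH-tamoxifen over untreated and have no replicate. Kcnk1 was lower in the 4OH-tamoxifen library in astrocytes (0.754, interval 0.670 to 0.850) and precursors (0.586, 0.375 to 0.907) and higher in Slc17a6 neurons (2.75, 1.04 to 9.16). Kcnk13 was lower in oligodendrocytes (0.736) and microglia (0.594). Kcnk5 was lower in oligodendrocytes (0.514, 0.270 to 0.983). Kcnk2 was higher in Slc32a1 neurons (1.61), oligodendrocytes (1.71) and microglia (3.92), and Kcnk3 in Chat neurons (4.02, 1.68 to 12.6) and oligodendrocytes (2.62). The Chat cluster with low Malat1 held 1 untreated and 41 4OH-tamoxifen cells, and in the cluster with high Malat1 Kcnk3 had 65.0 and 79.2 CPM. The part of this split, made after seeing the data, in the Chat ratio was not tested. The Chat ratio was 2.07 (0.782 to 6.90) with at most 10% mitochondrial UMIs and 2.31 (0.849 to 8.80) with 1 UMI more in the gate. After thinning it was 2.57 (0.643 to 22.3), and these 3 intervals hold 1.

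So the members that differed were not all displaced one way, with 5 lower and 6 higher pairs. Several of the higher ratios, those of Kcnk2 in microglia and oligodendrocytes and of Kcnk3 in oligodendrocytes, were in classes where the gene had at most 12.3 CPM. Microglia are themselves the background class for shares. The thinned shares of oligodendrocytes were 1.16% for Kcnk2 and 0.733% for Kcnk3, beside 1.32% and 0.658% of microglia. The part of such low levels in the difference between libraries was not tested. With cells of at least 2000 UMIs thinned to that depth, 3 of 16 pairs had an interval without 1, where 14.2% of all pairs did. With at most 10% mitochondrial UMIs 6 of 22 did, where 9777 of all 61204 pairs did. In the cells of no class 4 of 8 members with at least 20 UMIs had such an interval, where 34.4% of all genes with as many did.

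**Figure D4:**
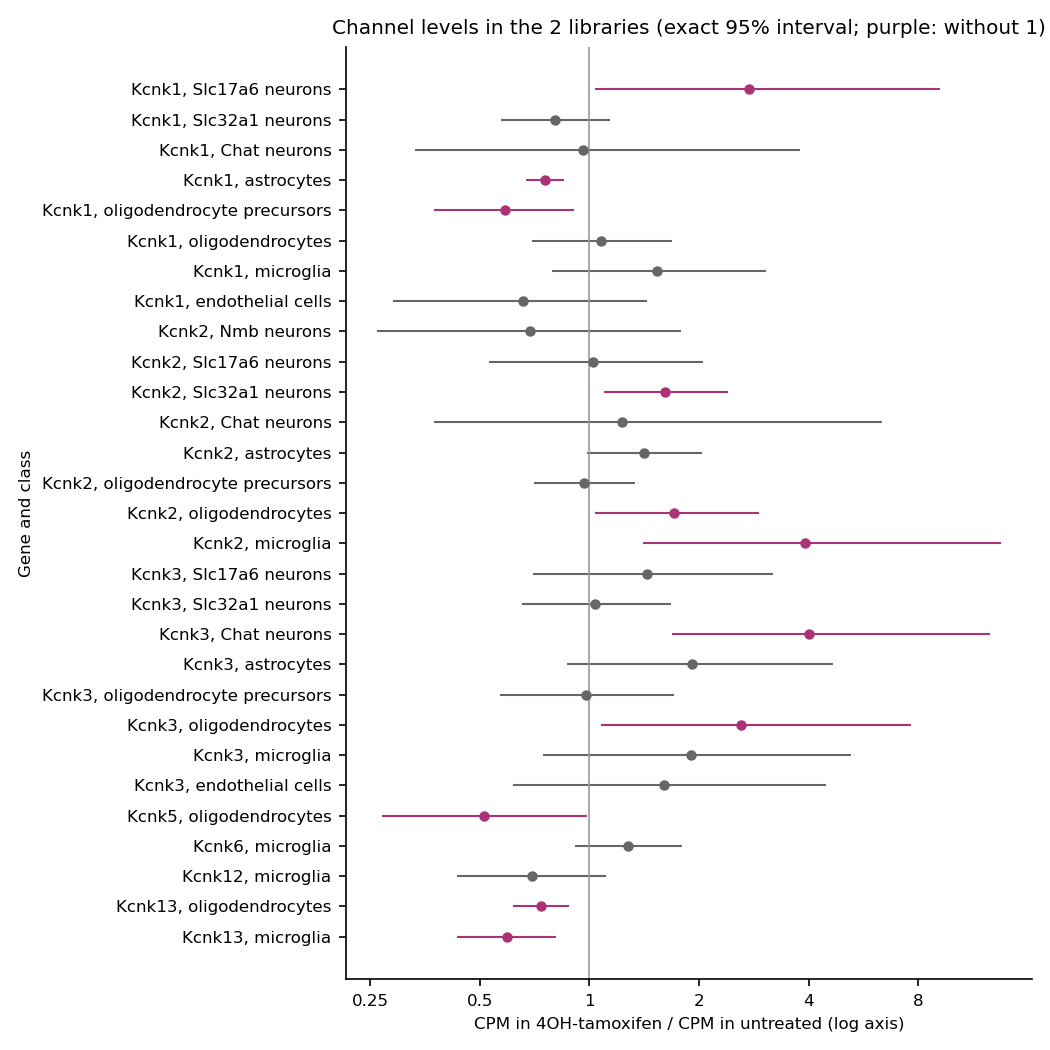
Ratio of CPM, 4OH-tamoxifen over untreated, on a log axis for the 29 pairs of gene and class with at least 20 UMIs. Bars are exact conditional 95% intervals of counting error, purple marks the 11 intervals without 1, and the grey line is 1. Kcnk3 in Chat neurons (4.02, and 2.07 with at most 10% mitochondrial UMIs) and Kcnk2 in microglia (3.92) lie highest and Kcnk5 in oligodendrocytes (0.514) lowest.

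At least 1 member was counted in 68.8% and 58.2% of Slc32a1 neurons, 53.3% and 37.0% of astrocytes, 49.7% and 32.7% of microglia and 12% and 11.2% of endothelial cells. At least 2 members were counted in 32.5% and 16.7% of Slc32a1 neurons and 13.2% and 5.69% of microglia, but in 3.76% and 2.63% of astrocytes. Depth differs between classes and libraries, and its part in these shares was not tested.

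Across the 20 sums the pattern of each member was set beside those of 10127 genes by Pearson's r of log2(CPM + 10), a description over points that share libraries and depth. The most alike were Fmn2 for Kcnk1 (r = 0.947), Tceal5 for Kcnk2 (0.956), Add2 for Kcnk3 (0.926), Cyth4 for Kcnk6 (0.990), Plekho1 for Kcnk12 (0.884) and Npc2 for Kcnk13 (0.893). Between members, r was 0.69 for Kcnk1 and Kcnk2, 0.65 for Kcnk6 and Kcnk13, 0.62 for Kcnk2 and Kcnk3 and 0.61 for Kcnk6 and Kcnk12. Kcnk3 and Kcnk13, the channels led by neurons and by glia, had r = -0.46.

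The other 5 genes of the family were sparse. Over all barcodes Kcnk7 had 89 UMIs, Kcnk4 52, Kcnk15 3, Kcnk18 1 and Kcnk16 0. Kcnk4, which encodes the stretch-opened channel TRAAK, had 8 and 7 UMIs in Slc32a1 neurons and 0 and 7 in Chat neurons. Kcnk7 had 10 and 24 UMIs in astrocytes and none in any neuronal class.

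A list of 14 genes known to act on or with these channels was tested in the same fit. Of these, 5 were higher and 5 lower in neurons than in non-neuronal classes, where 59.5% of all genes were called. In Nmb neurons against other neurons 1 was called, as higher, with 4.68% of all genes called. Psd, an exchange factor for the small GTPase that recycles TWIK-1, was higher in neurons (adjusted p = 5.62e-18, edgeR quasi-likelihood test), as was Gnaq, through which receptors close TASK channels (log2 1.06, SE 0.17). Arf6, that GTPase itself, was lower in neurons (log2 -1.35, SE 0.16), and so was Gna11, a close relative of Gnaq (log2 -0.71, SE 0.16). The Nmb gene was Gpr4, the proton receptor named above beside Kcnk5, with 110.0 CPM (16 UMIs) and 83.1 CPM (16 UMIs) in Nmb neurons, 109 and 117 CPM in endothelial cells and 0 in Chat neurons. Endothelial cells thus had Gpr4 at the level of Nmb neurons but 0 and 1 UMIs of Kcnk5.

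Between Chat and other neurons 2 of the 14 were called, both higher, with 15.8% of all genes called. They were S100a10, the p11 protein that binds TASK-1 (1.37, SE 0.23, adjusted p = 4.06e-06, edgeR quasi-likelihood test), and Map2, a microtubule protein that binds TREK-1 (0.98, SE 0.19). S100a10 was 1 of 4 that were higher in astrocytes (2.65, SE 0.15), beside 4 that were lower, with 36.5% of all genes called there. It was also the 1 that was lower in Slc32a1 neurons, where 10.1% of all genes were called. In microglia 1 was higher and 2 lower, with 33.0% of all genes called. The higher one was P2ry12, the ADP receptor whose signal opens THIK-1, with 1874 and 755 CPM. The oligodendrocyte lineage had 2 higher and 3 lower, beside 34.8% of all genes called, and vascular classes 3 higher and 4 lower, beside 24.2%. The median of the list lay farthest from that of all genes for neurons, with -0.79 against -0.13.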

How the data were processed

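Slices of the ventral parafacial region were digested, dissociated and captured with 10x version 2 chemistry, 1 library per condition. Per the submitters' processing notes, reads were handled with bcl2fastq 2.18.0.12 and Cell Ranger 2.2.0 against mm10 (GRCm38). The authors deposited counts of UMIs per gene and barcode, not normalized and before removal of doublets, and these counts were used as deposited. Barcodes that Scrublet marked were removed, as in the study, separately in each library: 6 (0.159%) and 544 (5.31%). The untreated rate is low, so doublets may remain there. Cells with fewer than 800 genes, over 50 hemoglobin UMIs or over 20% mitochondrial UMIs were removed.

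A neuron had at least 2 of Snap25, Syp, Tubb3 and Elavl2 and 3 UMIs of them. Non-neuronal classes needed 2 UMIs of their marker and 80% of the UMIs of the 6 class markers, Nmb neurons 2 UMIs of Nmb, and the other neurons 1 UMI of their marker. Cells with 3 UMIs of Dcn and Col1a1 were in no class. Summed counts were tested with edgeR 4.0.16 (R 4.3.3, TMM scaling, filterByExpr, glmQLFit and glmQLFTest) with the library as a block, at a Benjamini-Hochberg adjusted p under 0.05. The biological coefficient of variation was 0.122. Scripts were tested on simulated data.

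Microglia served as background for shares of cells. For Kcnk12 and Kcnk13 the class chosen for that was itself high, so oligodendrocytes and astrocytes took its place after the values were seen. A count of 0 is given with the share that 3 cells would make. Named are the 9 members, the other 5 Kcnk genes, a list of 14 regulators and, for members with 100 UMIs, the genes of most similar pattern among those with 20 CPM in at least 2 sums and 200 UMIs in all. Members and lists were chosen with earlier results of these data known. Marker genes used to divide classes, and fibroblast cells, were chosen after values were seen. Alternatives changed the scaling, the tool (DESeq2 1.42.0), the filter, the block, doublets, minimum genes (500 or 1200), the mitochondrial limit (10%), the gate, depth, and the classes, which were also taken from Leiden clusters (scanpy 1.11.5). Positions are from GENCODE and promoters from RefSeq (GRCm38.p6).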

Additional observations from a re-analysis of the deposited data

Results flagged for a closer look

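Cells that fell in no class, 1168 untreated and 3983 with 4OH-tamoxifen, were used in no comparison of the gated classes. When classes were taken from clusters, 4239 of these 5151 cells fell in a class, among them 1563 precursors, 1101 astrocytes, 707 oligodendrocytes and 256 Chat neurons, and 912 fell in none. Over all of these cells, 2 members had a higher level in the 4OH-tamoxifen library than in the untreated library beyond counting error, which is why they are listed. Kcnk2 had 44.4 CPM (524 UMIs) against 37.4 CPM (209 UMIs), a ratio of 1.19 (interval 1.01 to 1.40). Kcnk3 had 32.1 CPM (378 UMIs) against 17.9 CPM (100 UMIs), a ratio of 1.79 (1.43 to 2.25). Another 2 members were lower in the 4OH-tamoxifen library beyond counting error. Kcnk5 had 1.19 CPM (14 UMIs) against 3.05 CPM (17 UMIs), a ratio of 0.390 (0.178 to 0.840), and Kcnk13 had 8.14 CPM (96 UMIs) against 11.5 CPM (64 UMIs), a ratio of 0.710 (0.512 to 0.990). The intervals of Kcnk1, Kcnk6, Kcnk10 and Kcnk12 held 1. So 4 of 8 members with at least 20 UMIs in these cells had an interval without 1, where 34.4% of all such genes did. Each library is a single sample, so these ratios were not tested.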

How the results depend on the processing

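No called difference of a member reversed under any alternative, and the class with the highest level of each of the 7 tested members was the same under every alternative gate, filter and clustering tried. Of the other 2, Kcnk10 moved from precursors to Nmb neurons with at most 10% mitochondrial UMIs and with a gate of 1 UMI, and Kcnk9 from astrocytes to microglia with 1200 genes. Of the 16 calls of a member in a comparison, 11 held in every alternative that gave a test. Kcnk1 in neurons was lost with at most 10% mitochondrial UMIs (adjusted p = 0.0598), after thinning (0.0696) and with summed sides (0.916). Kcnk1 in Slc32a1 neurons was lost in 12 of 14 alternatives. Kcnk2 was lost in neurons with at most 10% mitochondrial UMIs (0.0537), in astrocytes with classes from clusters (0.327) and in the oligodendrocyte lineage with summed sides (0.0584). With summed sides, meaning the UMIs of all classes of a side added before the test, differences that had not been called were called in the other direction for Kcnk1 in the oligodendrocyte lineage (log2 -2.65 in place of 0.09) and Kcnk2 in microglia (-0.90 in place of 0.67).

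Members called in neurons against non-neuronal classes numbered 3 of 7 tested, of which 3 had no value (59.5% of all genes called), and 5 of 9 without the filter (36.8%), 1 of 6 with at most 10% mitochondrial UMIs (45.2%), 5 of 8 with a gate of 1 UMI (60.4%) and 6 of 8 with summed sides (67.5%). For Nmb neurons the count went from 1 (4.68%) to 0 with at most 10% mitochondrial UMIs (0.973%), where Kcnk5 was not tested. For Slc32a1 neurons (10.1% of all genes called) it went from 1 to 0 under DESeq2 (5.52%), without the filter (5.31%), without the replicate block (6.00%), without doublet removal (7.72%), with doublets by rate (7.69%), with 1200 genes (6.71%), with 1 UMI more in the gate (9.64%) and after thinning (6.21%), and to 2 with classes from clusters (10.1%). The member called was not Kcnk1 with RLE scaling, a gate of 1 UMI or summed sides (Kcnk3, lower), or with at most 10% mitochondrial UMIs (Kcnk2, higher). With summed sides it went from 2 to 6 for astrocytes (53.1% of all genes called), 2 to 5 for the oligodendrocyte lineage (62.1%), 3 to 5 for microglia (52.8%) and 3 to 5 for vascular classes (57.9%), and for astrocytes to 1 with classes from clusters (37.7%). Ratios between libraries with an interval without 1 went from 11 of 29 (18.5% of all pairs) to 6 of 22 with at most 10% mitochondrial UMIs (9777 of 61204) and to 3 of 16 after thinning (14.2%).

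Of 126 levels of a tested member in its leading class under the alternatives, 115 lay within the counting interval of the reported level. Levels moved by over 1.5 times were Kcnk3 in Chat neurons (untreated 114 CPM with 1 UMI more in the gate, 4OH-tamoxifen 138 CPM at 10% mitochondrial UMIs) and Kcnk5 in Nmb neurons (untreated 0 at 10% mitochondrial UMIs, 4OH-tamoxifen 76.1 CPM thinned and 26.8 CPM from clusters).

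Counts of all genes called moved too. Nmb neurons had 562, and 371 without the replicate block, 115 with at most 10% mitochondrial UMIs, 285 with a gate of 1 UMI and 226 after thinning. Slc32a1 neurons had 1211, and 664 under DESeq2, 721 without the replicate block, 786 with 1200 genes and 630.0 after thinning. Chat neurons had 1904, and 1248 with 1 UMI more in the gate, 907 after thinning, 3705 with classes from clusters and 806 with summed sides. Summed sides gave 7018 in place of 4385 for astrocytes, 8243 in place of 4188 for the oligodendrocyte lineage, 6847 in place of 3967 for microglia and 7507 in place of 2904 for vascular classes. Thinning gave 2658 for the oligodendrocyte lineage and 1750.0 for vascular classes, and clusters 4670.0 for the latter. Higher genes were 82.1% of those called in Slc32a1 neurons, 58.8% with RLE scaling and 59.9% under DESeq2. They were 54.0% in Chat neurons, 64.4% with RLE scaling and 65.9% under DESeq2. DESeq2 gave 73.8% in place of 50.5% for Nmb neurons, 44.2% in place of 59.4% for the oligodendrocyte lineage and 58.7% in place of 38.3% for vascular classes.

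The replicate block is the library, which holds 1 sum of every class. Each library alone leaves no residual degrees of freedom, so its values have no test. The cause of these changes was not tested. Depth limits the sparse members: Kcnk5 rests on 66 UMIs in gated cells, Kcnk10 on 36 and Kcnk9 on 4, and pericytes on 33 and 19 cells. Intervals cover counting error only, and UMIs of free RNA cannot be told apart from low expression.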
